A study of Mus musculus with 33 samples.

Results

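Donor monocytes that had entered the inflamed small intestine of manipulated recipients were compared with those that had entered the small intestine of non-manipulated recipients. Both groups were sampled 1 day after transfer, and 57 of the 67 genes of an nCounter panel are described here. nCounter is a hybridisation assay in which every captured transcript carries a coloured barcode and the barcodes are counted. The 57 genes are those with a value in every library. Ccr8 and Cd163 had a value in only some libraries, and 8 genes (Csf2, Cx3cl1, Flt3, Il4, Nos2, Pparg, Stat3 and Zbtb46) had no value in any. The comparison used 9 of the 33 libraries of the series, namely 5 from manipulated and 4 from non-manipulated recipients.

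Donors were C57BL/6 mice that had not been operated. The paper calls the transferred cells wild-type (WT), and its methods name WT or CX3CR1gfp/+ donors for such transfers. The titles of these 9 libraries do not give the donor genotype. All recipients of both groups were C57BL/6 CCR2-/- mice, so that the transferred bone marrow (BM) monocytes were the cells able to use CCR2. In manipulated recipients the small intestine was flattened surgically 1 day before the transfer, under ketamine and xylazine, and the mice then drank water with Novalgin. Non-manipulated recipients had neither surgery nor drug. No library came from sham-operated recipients, so inflammation, surgery, anaesthesia and drug cannot be told apart here. Each library held 100 sorted cells of 1 numbered mouse, and the age of the mice is not given in the sources used here. Per the methods, donor cells were identified by a congenic marker and as CD11b+CD11c lo/int CD64+ cells, so Itgax (CD11c) and Fcgr1 (CD64) are not independent of the sort.

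Monocytes leave the blood through chemokine receptors and adhesion molecules, and in the healthy gut wall they turn stepwise into resident macrophages that take up MHC class II, CX3CR1 and scavenger receptors while they lose Ly6C. In inflamed gut the same cells instead release cytokines and chemokines that draw in neutrophils and more monocytes. Their sensing of microbes runs through Toll-like receptors, NOD2 and co-receptors to NF-kappaB and interferon regulatory factors, which drive the genes of these secreted ligands.

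Transcripts of the label of the sorted cells were detected, which does not by itself show what the cells were. All 8 measured markers of monocytes and macrophages (Ccr2, Csf1r, Cd14, Cd68, Fcgr1, Emr1, Siglec1 and Mrc1) lay above background in all 9 libraries. Every other tested gene except Retnla did so too, among them the dendritic cell marker Ccr7, so this criterion cannot tell cell types apart. Of the 8 markers, Fcgr1 is the gene of a sorting marker, and Siglec1 and Mrc1 held as few as 67 and 61 counts. The summed log2 level was 17.33 to 17.93 in manipulated and 17.67 to 18.20 in non-manipulated libraries. Ccr2, the gene knocked out in the recipients, reached a log2 level of at least 12.55 in every library. Whether the knockout allele still yields transcript that the probe reads was not tested. Of 8 markers of dendritic cells only Ccr7 had a value (10.14 to 11.97 in manipulated and 10.76 to 11.87 in non-manipulated libraries), while Flt3 and Zbtb46 were on the panel without a value. No marker of neutrophils, eosinophils, lymphocytes, epithelium or stroma was on the panel, so their part in the results was not tested. In bulk libraries such as these, fewer cells of a type and less RNA per cell cannot be told apart.

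Total counts ranged from 925869 to 1574105 in manipulated and from 1283497 to 1466732 in non-manipulated libraries, and the background (2 SD above the mean of the negative probes) was 16.7 to 40.1 and 26.3 to 46.7 counts. All genes lay above background in all 9 libraries except Retnla, which did so in 3 of the 4 non-manipulated libraries. Some lanes of the deposited table had been multiplied by a constant, which was 1.333 for libraries 3 and 4 of both groups, 2 for manipulated library 5 and 1 for libraries 1 and 2 of both groups. The brightest positive control probe read 3674 and 3489 counts in manipulated libraries 3 and 4, and at least 9287 in the other 7 libraries. Levels are log2(normalised count + 1) after scaling to Actb, Gapdh and Rpl19. Relative to the mean of these 3 genes, Actb was lower in all manipulated libraries (1.71 to 1.89 on the log2 scale) than in all non-manipulated libraries (2.05 to 2.41), and Rpl19 was higher (-3.35 to -3.06 against -3.90 to -3.54). Probes differ in efficiency, so levels are compared between libraries and not between genes.

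Manipulation was accompanied by changes in both directions. Of the 57 genes, 19 (33.3%) passed an adjusted p of 0.05 in limma, 11 of them higher (19.3%) and 8 lower (14%) in manipulated small intestine. The unadjusted p was under 0.05 for 26 genes. The median log2 difference over all 57 genes was -0.01, with 28 positive and 29 negative differences, and the median width of a 95% interval on either side of the difference was 1.15. In 22 genes (38.6%) the 5 manipulated libraries did not overlap the 4 non-manipulated ones. These comprised 16 of the 19 called genes and 6 others. The calls that held in all 31 alternative settings were 11, those of Arg1, Ccl2, Ccl7, Cx3cr1, Cxcl1, Il10, Il1a, Il23a, Il6, Itgax and Tnf. Some of these settings could hardly change a call, because they tested the same 57 genes or left in a lane constant that the scaling removes.

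**Figure D1:**
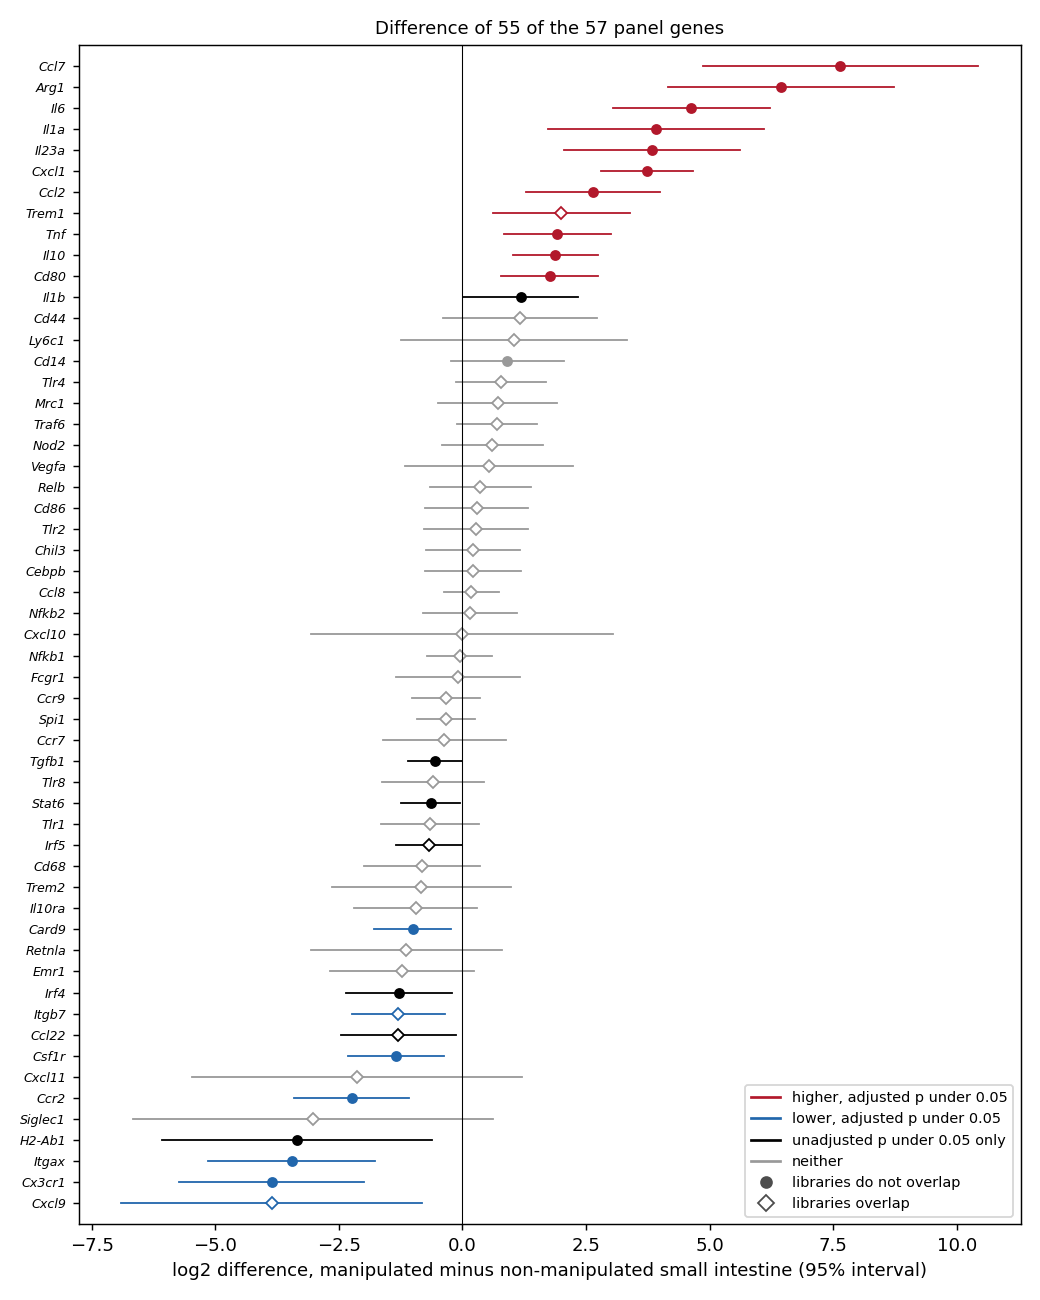
Log2 difference, manipulated minus non-manipulated small intestine (x axis), of 55 of the 57 panel genes (y axis) with its 95% interval from limma. Colours mark the genes past the threshold (11 higher in red, 7 of the 8 lower in blue), those with an unadjusted p under 0.05 only in black and the rest in grey, and filled circles mark genes whose libraries did not overlap.

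Of the gene lists, the pro-inflammatory cytokines had the highest median difference. Of 5 measured cytokines 4 rose and none fell (80% called, beside 33.3% of all genes). Their median log2 difference was 3.84 beside -0.01 over all genes. Il6, which encodes a pyrogenic cytokine that acts on hepatocytes and lymphocytes, had log2 levels of 11.75, 10.63, 9.11, 10.53 and 12.15 in manipulated libraries 1 to 5, against 6.20, 6.26, 6.21 and 6.14 in non-manipulated libraries 1 to 4. The non-manipulated libraries were almost identical and held only 70 to 82 counts, not far above background, whereas the manipulated ones spread over a range of 325 to 4799 counts. The difference was 4.63 ± 0.77 (SE), 24.8-fold (adjusted p = 8.4e-05).

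Il23a encodes the p19 subunit of IL-23, a cytokine that sustains IL-17-producing lymphocytes. It had log2 levels of 9.28, 10.41, 11.15, 12.87 and 7.49 in manipulated libraries 1 to 5, against 5.83, 6.53, 6.15 and 7.10 in non-manipulated libraries 1 to 4. Non-manipulated libraries held only 54 to 160 counts, not far above background, so the fold is uncertain. The groups did not overlap, but the gap between manipulated library 5 and the highest non-manipulated library was narrow, and library 4 lay far above the rest. The difference was 3.84 ± 0.86 (SE, 14.3-fold, adjusted p = 0.0015), and it became 3.18 without manipulated library 4 and 4.52 without manipulated library 5.

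Il1a, the gene of the alarmin IL-1α, varied least of the risen cytokines among the manipulated libraries. It had log2 levels of 16.997, 17.37, 16.99, 17.22 and 17.30 in manipulated libraries 1 to 5, against 13.28, 13.19, 13.52 and 13.05 in non-manipulated libraries 1 to 4. Every manipulated library thus lay well above every non-manipulated one (3.92 ± 1.06, SE, 15.1-fold, adjusted p = 0.0053). Tnf, which encodes the cytokine TNF, had log2 levels of 16.13, 17.01, 16.80, 16.78 and 15.96 in manipulated libraries, against 14.08, 13.95, 15.06 and 15.37 in non-manipulated ones. The groups came close to each other between manipulated library 5 and non-manipulated library 4 without overlap (1.92 ± 0.53, SE, 3.78-fold, adjusted p = 0.0053).

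Il1b, which encodes the inflammasome-processed cytokine IL-1β, did not pass. Its log2 levels were 16.78, 16.66, 16.42, 16.82 and 16.93 in manipulated libraries, against 14.79, 16.13, 15.71 and 15.56 in non-manipulated ones. The groups did not overlap, yet the difference of 1.18 ± 0.56 (SE) had an adjusted p of 0.105, and of 0.0141 when only these 9 libraries were fitted.

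Il10, the gene of the anti-inflammatory cytokine IL-10, also rose. It had log2 levels of 13.83, 14.30, 14.03, 13.45 and 13.56 in manipulated libraries 1 to 5, against 12.26, 11.32, 11.95 and 12.30 in non-manipulated libraries 1 to 4. All manipulated libraries lay above all non-manipulated ones, and the difference was 1.88 ± 0.42 (SE, 3.67-fold, adjusted p = 0.0015). The other measured genes of the IL-10 and TGF-beta axis did not pass. Il10ra, the ligand-binding chain of the IL-10 receptor, differed by -0.95 (95% interval -2.19 to 0.30). Tgfb1, which encodes TGF-β1, had log2 levels of 16.35, 16.46, 15.89, 16.14 and 16.25 in manipulated libraries, against 16.76, 16.76, 16.92 and 16.62 in non-manipulated ones. These groups did not overlap, and the small difference of -0.55 ± 0.27 (SE) had an adjusted p of 0.109.

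Of 8 measured chemokines 3 rose and 1 fell (50% called, beside 33.3% of all genes), with a median log2 difference of 0.08. Cxcl1, the gene of a neutrophil attractant, had the smallest adjusted p of the comparison. Its log2 levels were 11.48, 11.06, 12.66, 12.12 and 11.48 in manipulated libraries 1 to 5, against 7.34, 8.10, 7.99 and 8.70 in non-manipulated libraries 1 to 4. The groups lay far apart relative to the spread within each (11.76 ± 0.63 and 8.03 ± 0.56, SD, n = 5 and 4), and the difference was 3.73 ± 0.45 (SE, 13.3-fold, adjusted p = 8.2e-07).

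Ccl7 and Ccl2 encode monocyte attractants that act on CCR2. Ccl7 had log2 levels of 14.53, 12.61, 14.92, 14.90 and 13.67 in manipulated libraries 1 to 5, against 6.24, 6.87, 6.65 and 6.18 in non-manipulated libraries 1 to 4. Non-manipulated libraries held only 72 to 118 counts, close to their background, and manipulated ones 4511 to 22909, so the difference of 7.64 ± 1.35 (SE, adjusted p = 9.9e-05) was the largest of the panel. Ccl2 was already high without manipulation, with log2 levels of 14.48, 14.41, 14.94, 15.02 and 14.69 in manipulated libraries, against 12.14, 11.95, 11.87 and 12.32 in non-manipulated ones. Its libraries were tight in both groups and did not overlap (2.64 ± 0.66, SE, 6.23-fold, adjusted p = 0.0030).

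Cxcl9, the gene of an interferon-induced T cell attractant, fell. Its log2 levels were 7.35, 5.92, 6.59, 6.71 and 6.33 in manipulated libraries 1 to 5, against 10.89, 11.72, 6.72 and 12.44 in non-manipulated libraries 1 to 4. Non-manipulated library 3 thus lay within the manipulated range, and the manipulated libraries held only 43 to 157 counts. The difference of -3.86 ± 1.47 (SE, adjusted p = 0.0444) was lost in 8 of the 9 fits that each left out 1 library (adjusted p up to 0.143). It passed only without that same non-manipulated library 3, with a difference of -5.10.

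The other interferon-induced attractants on the panel did not pass. Cxcl10 differed by -0.01 with a 95% interval of -3.07 to 3.04, and Cxcl11 by -2.13 (-5.46 to 1.20). These intervals rest on the spread in all 11 groups, and in this fit changes of several log2 units were not detectable. In manipulated and non-manipulated small intestine the SD was 0.60 and 1.19 for Cxcl10, and 1.35 and 1.89 for Cxcl11. Ccl8, another monocyte attractant, differed by 0.18 (-0.38 to 0.74), a much narrower interval. Ccl22, which encodes an attractant of CCR4-bearing T cells, had log2 levels of 11.19, 10.14, 8.94, 9.30 and 9.82 in manipulated libraries, against 12.08, 10.54, 10.39 and 11.69 in non-manipulated ones. The groups overlapped and the difference of -1.30 ± 0.57 (SE) had an adjusted p of 0.0788.

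**Figure D2:**
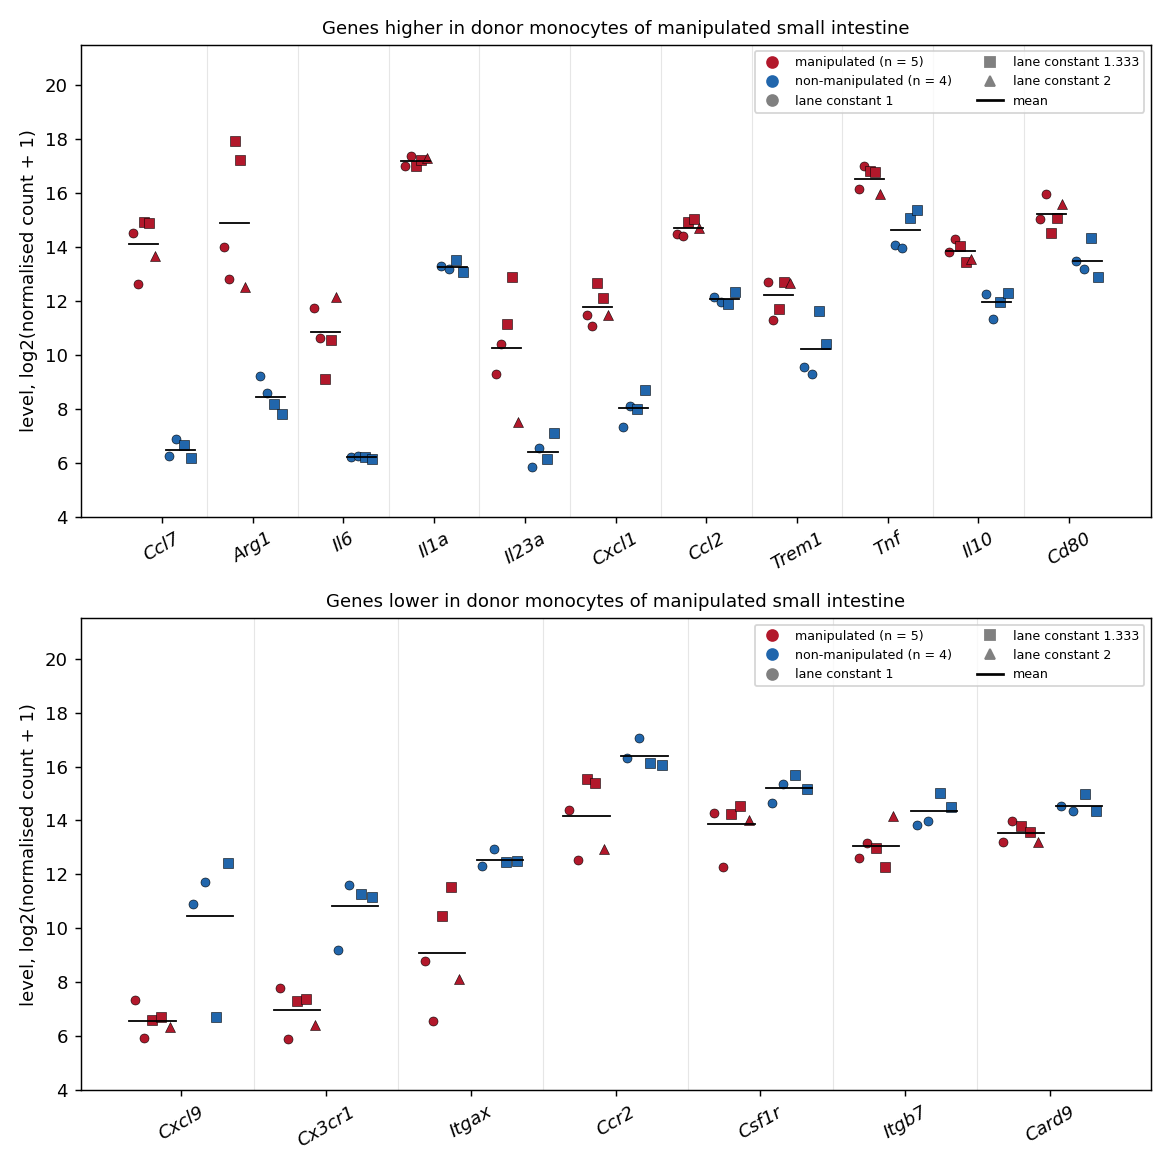
Log2 level (y axis) of the 11 genes higher (upper panel) and 7 of the 8 genes lower (lower panel) in manipulated small intestine, with 1 point per library, manipulated (red) left of non-manipulated (blue), and a line at the mean. Point shapes give the constant by which the lane had been multiplied, and the groups overlap only in Trem1, Cxcl9 and Itgb7.

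The promoters of called genes were searched for 2 motifs, GGGANNTTC for NF-kappaB and TGANTCA for AP-1, on both strands over 250 bases before to 50 after the start (RefSeq, GRCm38.p6). The table of promoters held 12 of the 19 called genes, 6 of them higher and 6 lower, and the others were without an entry. The NF-kappaB motif was found in 3 higher genes (Cxcl1, Il6 and Tnf) and 1 lower gene (Cxcl9), and in 3.94% of all 32851 promoters. The AP-1 motif was found in 3 higher (Il6, Il1a and Cd80) and 2 lower genes (Itgax and Cxcl9), and in 7.81% of all promoters. The 100 bases before the start are shown for Cxcl1 and Il6, the genes with the smallest adjusted p, and for Itgax as a gene that fell, with the NF-kappaB motif (Cxcl1, Il6) or the AP-1 motif (Itgax) in capitals. In Cxcl1 2 overlapping matches began 71 and 69 bases before the start, in Il6 the match began 44 bases and in Itgax 56 bases before it. A match describes the letters and not a bound factor.
Cxcl1, chr5:90891145-90891244, plus strand: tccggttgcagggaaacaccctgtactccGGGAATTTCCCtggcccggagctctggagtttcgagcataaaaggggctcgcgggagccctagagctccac
Il6, chr5:30013014-30013113, plus strand: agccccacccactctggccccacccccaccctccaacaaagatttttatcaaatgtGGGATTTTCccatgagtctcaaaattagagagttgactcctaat
Itgax, chr7:128129450-128129549, plus strand: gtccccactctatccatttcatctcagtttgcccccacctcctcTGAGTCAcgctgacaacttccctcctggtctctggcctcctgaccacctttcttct

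Chemokine receptors were lower where they passed. Of 4 measured receptors 2 fell and none rose (50% called, beside 33.3% of all genes), with a median log2 difference of -1.30. Cx3cr1, the gene of the fractalkine receptor that marks maturing gut macrophages, had log2 levels of 7.79, 5.89, 7.30, 7.40 and 6.40 in manipulated libraries 1 to 5, against 9.20, 11.62, 11.26 and 11.17 in non-manipulated libraries 1 to 4. Non-manipulated library 1 was the lowest of its group but still above every manipulated library, which held 42 to 214 counts (-3.86 ± 0.91, SE, 14.5-fold lower, adjusted p = 0.0020).

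Ccr2 had log2 levels of 14.40, 12.55, 15.53, 15.38 and 12.93 in manipulated libraries, against 16.33, 17.07, 16.13 and 16.08 in non-manipulated ones. All manipulated libraries lay below all non-manipulated ones, with libraries 3 and 4 nearest to them (-2.24 ± 0.56, SE, 4.73-fold lower, adjusted p = 0.0030). The Ccr2 call was lost in 2 alternative settings (adjusted p up to 0.111). Ccr9, the gut-homing receptor for CCL25, differed by -0.33 (95% interval -1.01 to 0.36), and Ccr7, which guides cells to lymph nodes, by -0.37 (-1.62 to 0.88).

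Adhesion receptors were divided, with 2 of 4 lower and none higher (50% called, beside 33.3% of all genes). Itgax, which encodes the integrin chain CD11c, had log2 levels of 8.80, 6.55, 10.46, 11.52 and 8.12 in manipulated libraries 1 to 5, against 12.30, 12.93, 12.45 and 12.51 in non-manipulated libraries 1 to 4. The non-manipulated libraries lay close together and the manipulated ones were scattered below them. The difference of -3.46 ± 0.82 (SE, adjusted p = 0.0020) became -2.82 without manipulated library 2 and -4.06 without manipulated library 4.

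Itgb7, the β7-integrin chain that binds the gut addressin MAdCAM-1 together with α4, had log2 levels of 12.61, 13.16, 12.99, 12.29 and 14.16 in manipulated libraries, against 13.82, 13.997, 15.02 and 14.51 in non-manipulated ones. Manipulated library 5 lay within the non-manipulated range. The difference of -1.30 ± 0.45 (SE, adjusted p = 0.0286) was lost without non-manipulated library 3 (-1.07, adjusted p = 0.108) or 4 (-1.24, 0.0680) and without manipulated library 1 (-1.19, 0.0588) or 4 (-1.11, 0.0754). Cd44, a receptor for hyaluronan, differed by 1.16 (95% interval -0.40 to 2.72).

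Among 8 pattern recognition receptors and co-receptors only Trem1 passed (12.5% called, beside 33.3% of all genes). Their median log2 difference was 0.44. Trem1 encodes a receptor that amplifies Toll-like receptor signals. It had log2 levels of 12.69, 11.31, 11.70, 12.71 and 12.65 in manipulated libraries 1 to 5, against 9.53, 9.27, 11.63 and 10.42 in non-manipulated libraries 1 to 4. Non-manipulated library 3 lay above manipulated library 2. The difference of 2.00 ± 0.67 (SE, 3.99-fold, adjusted p = 0.0248) was lost without non-manipulated library 1 (1.77, adjusted p = 0.0741) or 2 (1.68, 0.0905) and without manipulated library 1 (1.88, 0.0519) or 4 (1.87, 0.0521).

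Cd14, the co-receptor for bacterial lipopolysaccharide, was higher in all manipulated libraries (16.64 to 17.35) than in all non-manipulated ones (15.67 to 16.58). The SD was 0.28 and 0.41 in these groups. With the spread shared by all 11 groups in limma, the Cd14 difference of 0.91 ± 0.55 (SE) had an adjusted p of 0.207. Tlr2, which senses bacterial lipoproteins, differed by 0.28 (95% interval -0.77 to 1.33) and Tlr8, a sensor of RNA, by -0.59 (-1.62 to 0.44). The remaining members Tlr1, Tlr4, Nod2 and Trem2 had differences between -0.83 and 0.77 and did not pass.

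Of 5 measured adaptors and NF-kappaB genes 1 fell (20% called, beside 33.3% of all genes). Card9, which links C-type lectin receptors to NF-kappaB, had log2 levels of 13.19, 13.99, 13.79, 13.58 and 13.19 in manipulated libraries 1 to 5, against 14.54, 14.33, 14.99 and 14.35 in non-manipulated libraries 1 to 4. The groups did not overlap, but the gap was small (-1.01 ± 0.38, SE, 2.01-fold lower, adjusted p = 0.0413). The call was lost in 7 of the 9 fits that each left out 1 library, namely all but those without manipulated library 2 or 3, with an adjusted p of up to 0.119. Nfkb1 and Nfkb2, the genes of 2 NF-kappaB subunits, differed by -0.05 (95% interval -0.72 to 0.61) and 0.16 (-0.79 to 1.11). Relb, another subunit, and Traf6, an adaptor of Toll-like receptor signalling, differed by 0.36 and 0.69 without passing.

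Of 6 measured transcription factors 1 fell and none rose (16.7% called, beside 33.3% of all genes). Their median log2 difference was -0.66. The other 5 did not pass, 3 of them with an unadjusted p under 0.05, and are described here. Irf4, a factor that acts in alternative activation and in dendritic cells, had log2 levels of 11.70, 11.15, 11.33, 11.02 and 11.04 in manipulated libraries, against 12.39, 12.59, 12.41 and 12.71 in non-manipulated ones. Both groups were tight and did not overlap, yet the difference of -1.28 ± 0.52 (SE) had an adjusted p of 0.0579 in the fit over all libraries and of 0.0030 when only these 9 libraries were fitted. Stat6, which carries the IL-4 signal, had log2 levels of 13.42, 13.15, 13.35, 13.08 and 12.64 in manipulated libraries, against 13.64, 14.13, 13.65 and 13.66 in non-manipulated ones. These did not overlap either (-0.64 ± 0.29, SE, adjusted p = 0.0936).

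Irf5, a factor of inflammatory activation, had log2 levels of 14.08, 12.54, 13.55, 13.66 and 13.47 in manipulated libraries, against 13.44, 14.61, 14.35 and 14.17 in non-manipulated ones. The groups overlapped and the difference was -0.68 ± 0.32 (SE, adjusted p = 0.105). Cebpb and Spi1, the genes of the myeloid factors C/EBPβ and PU.1, differed by 0.21 (95% interval -0.76 to 1.18) and -0.33 (-0.92 to 0.26).

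The 3 genes of antigen presentation and costimulation did not move together. Cd80, a ligand of CD28 on T cells, had log2 levels of 15.03, 15.96, 14.50, 15.07 and 15.60 in manipulated libraries 1 to 5, against 13.49, 13.17, 14.33 and 12.90 in non-manipulated libraries 1 to 4. Its groups did not overlap, although manipulated library 3 and non-manipulated library 3 were close (1.76 ± 0.48, SE, 3.39-fold, adjusted p = 0.0053). The Cd80 call was lost when replicate number was a block and only the compared groups were fitted (adjusted p = 0.0738). Cd86, the other CD28 ligand, differed by 0.28 (95% interval -0.76 to 1.33).

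H2-Ab1 encodes a chain of the MHC class II molecule that presents antigen to CD4 T cells. It had log2 levels of 11.07, 9.35, 15.19, 15.99 and 14.93 in manipulated libraries 1 to 5, against 17.04, 16.67, 16.42 and 16.49 in non-manipulated libraries 1 to 4. Every manipulated library was lower, with libraries 1 and 2 far below and libraries 3 to 5 closer to the non-manipulated ones. With this spread the difference of -3.35 ± 1.33 (SE, 10.2-fold lower) just missed the threshold (adjusted p = 0.0532), and it passed in 11 of 31 alternative settings. It became -2.36 (5.13-fold lower, adjusted p = 0.171) without manipulated library 2 and -4.02 (16.2-fold lower, adjusted p = 0.0250) without manipulated library 4.

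Genes of alternative activation and wound repair were led by Arg1, the only 1 of 6 that passed (16.7%, beside 33.3% of all genes). Arg1 encodes arginase 1, which degrades arginine. It had log2 levels of 14.01, 12.80, 17.94, 17.22 and 12.50 in manipulated libraries 1 to 5, against 9.21, 8.60, 8.19 and 7.82 in non-manipulated libraries 1 to 4. All manipulated libraries were higher, and libraries 3 and 4 lay well above the other 3 (6.44 ± 1.11, SE, adjusted p = 9.4e-05). The fold of 86.8 became 51.2 without manipulated library 3 and 131 without manipulated library 5. Chil3, which encodes the chitinase-like protein Ym1, differed by 0.21 (95% interval -0.75 to 1.17), and Vegfa, an angiogenic factor, by 0.54 (-1.16 to 2.23).

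Of 7 genes that mark macrophages 2 fell, Cx3cr1 and Csf1r (28.6% called, near the 33.3% of all genes). Csf1r, the receptor of the growth factor M-CSF, had log2 levels of 14.27, 12.26, 14.25, 14.53 and 14.01 in manipulated libraries 1 to 5, against 14.64, 15.35, 15.69 and 15.18 in non-manipulated libraries 1 to 4. The groups were separated by a gap of only 0.11, less than most distances between neighbouring libraries within a group. Manipulated library 2 was far below the rest (-1.35 ± 0.47, SE, 2.54-fold lower, adjusted p = 0.0286). The call was lost without manipulated library 2 (-0.95, adjusted p = 0.101) and without non-manipulated library 2 (-1.30, 0.0667), 3 (-1.19, 0.0909) or 4 (-1.36, 0.0553). Fcgr1, the gene of the sorting marker CD64, differed by -0.09 (95% interval -1.34 to 1.16). Emr1, which encodes F4/80, and Cd68, a lysosomal protein, differed by -1.22 (-2.67 to 0.23) and -0.82 (-1.99 to 0.35). Among 4 measured genes of Ly6C-high monocytes only Ccr2 passed (25% called, beside 33.3% of all genes).

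The manipulated libraries differed more among themselves than the non-manipulated ones. The SD of the log2 level was larger in the manipulated group for 41 of 57 genes, with a median SD of 0.71 against 0.54. The root mean square log2 difference over the 57 genes ran from 0.60 to 2.31 between pairs of manipulated libraries (median 1.76) and from 0.98 to 1.38 between pairs of non-manipulated libraries (median 1.26), while pairs across the groups lay at 2.24 to 3.05 (median 2.61). Manipulated libraries 3 and 4 were the closest pair.

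**Figure D3:**
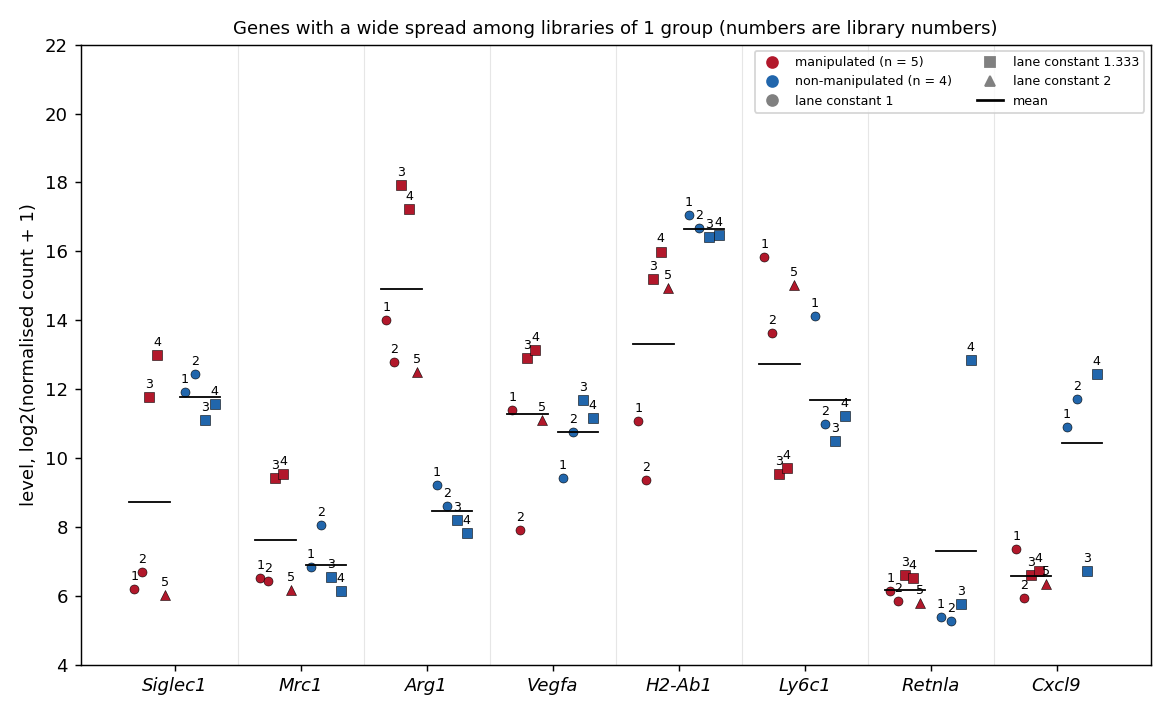
Log2 level (y axis) of 8 genes with a wide spread among the libraries of a group, chosen after their values were seen. Points are libraries with their numbers, manipulated (red) left of non-manipulated (blue), shapes give the lane constant and lines the mean. Manipulated libraries 3 and 4 lie apart in Siglec1, Mrc1, Arg1 and Ly6c1.

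Manipulated libraries 3 and 4 stood apart in several genes, which were chosen after their values were seen. Other macrophage genes, such as Cx3cr1 and Csf1r, did not set them apart. Siglec1, which encodes the sialic acid receptor CD169 of resident macrophages, had log2 levels of 6.19, 6.70, 11.78, 12.9997 and 6.01 in manipulated libraries 1 to 5, against 11.91, 12.44, 11.12 and 11.57 in non-manipulated libraries 1 to 4. Libraries 3 and 4 were thus within or above the non-manipulated range, and the other 3 lay close to their background. Mrc1, the mannose receptor, showed a similar split (6.50, 6.42, 9.43, 9.53 and 6.15 in manipulated libraries, against 6.83, 8.06, 6.56 and 6.14 in non-manipulated ones). Ly6c1, which encodes a form of the monocyte antigen Ly6C, was split in the opposite direction, with 15.82, 13.64, 9.53, 9.70 and 15.02 in manipulated libraries, against 14.11, 10.98, 10.49 and 11.21 in non-manipulated ones. Its transcript is nearly identical to that of Ly6c2, so the probe may read both.

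None of these 3 genes passed (adjusted p = 0.188 for Siglec1, 0.347 for Mrc1 and 0.450 for Ly6c1). Because libraries 3 and 4 of both groups shared the lane constant of 1.333, differences were also taken within each constant, with 2 manipulated and 2 non-manipulated libraries each. Among libraries with a constant of 1, Siglec1 differed by -5.73, Mrc1 by -0.98, Ly6c1 by 2.18 and H2-Ab1 by -6.64, whereas among libraries with a constant of 1.333 the differences were 1.05, 3.13, -1.24 and -0.86. The sign was thus opposite in Siglec1, Mrc1 and Ly6c1, as it was in 17 of all 57 genes. It was opposite in none of the 19 called genes, which were called on these same libraries. In the 16 of them whose libraries did not overlap the sign could not differ, so this is no check of the calls. Arg1 differed by 4.50 within the constant of 1 and by 9.58 within 1.333, and Ccr2 by -3.22 and -0.64. The paper pooled its nCounter data from several independent experiments, and the sample titles do not say which library came from which. Lane, mouse, experiment and amount of input cannot be told apart for manipulated libraries 3 and 4. Without both of them 24 genes passed, 14 higher and 10 lower.

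Single non-manipulated libraries were apart in other genes. Retnla, which encodes the resistin-like molecule RELMα induced by IL-4, had log2 levels of 6.13, 5.85, 6.62, 6.50 and 5.78 in manipulated libraries, against 5.37, 5.26, 5.76 and 12.85 in non-manipulated ones. Library 4 held 8664 counts and the other 3 held 38 to 53, so the difference of -1.13 (95% interval -3.06 to 0.79) rests on that library.

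The count of genes called lower differed between scalings. With the total count 10 genes were higher and 13 lower, with the house-keeping genes without Actb 11 and 12, and with the values of the series matrix 14 and 2, beside 11 and 8 in the main setting. The median difference of all genes moved by -0.32, -0.21 and 0.54 log2 units in these settings, and by -0.12 with TMM factors and 0.25 without Rpl19. No called gene changed its direction in any of them, but some calls were lost. With the values of the series matrix this applied among others to Ccr2 (-1.70, adjusted p = 0.0704), Csf1r (-0.81, 0.265), Itgb7 (-0.76, 0.187), Card9 (-0.47, 0.435) and Cxcl9 (-3.33, 0.102). Itgb7 and Card9 were also lost without Rpl19 (adjusted p = 0.0922 and 0.230) and Trem1 with the total count (0.0762) and with edgeR (0.0516). Csf1r was lost when only these 9 libraries were fitted (0.0519) and Card9 with DESeq2 and its own size factors (0.0726).

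Whether these changes were those of the inflamed gut or of all tissues of an operated mouse was addressed with donor monocytes of liver (2 manipulated and 3 non-manipulated libraries), spleen and BM (3 and 3 each) of recipients of the same kinds. The difference between manipulated and non-manipulated recipients was compared between small intestine and each of these tissues in the same fit. It was greater in small intestine for 3 genes against liver (5.26%), 7 against spleen (12.3%) and 5 against BM (8.77%), and smaller for none (0%). At an unadjusted p under 0.05 the counts were 11, 9 and 7. Within the tissues themselves no gene passed in liver or spleen and 1 in BM, while 6, 6 and 8 had an unadjusted p under 0.05. These 3 comparisons share all libraries of small intestine, so they are not independent of each other. The sources used here do not say whether mice of the same number in 2 tissues were the same animal, and the fit treated all libraries as independent.

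Cxcl1 differed from all 3 tissues. Its log2 difference was 3.73 in small intestine, 0.43 in liver, -0.04 in spleen and -0.01 in BM, and the excess in small intestine was 3.30 ± 0.76 over liver, 3.77 ± 0.71 over spleen and 3.74 ± 0.71 over BM (SE, adjusted p = 0.0062, 0.0010 and 0.0012). Il23a likewise passed against all 3, by 5.47 ± 1.45, 4.25 ± 1.36 and 4.36 ± 1.36 (SE, adjusted p = 0.0174, 0.0420 and 0.0409).

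Other genes passed against some tissues only. Il10 had a log2 difference of 1.88 in small intestine beside -1.63 in liver and -1.06 in spleen, and the excess was 3.50 ± 0.71 over liver and 2.94 ± 0.66 over spleen (SE, adjusted p = 0.0024 and 0.0033). Il6 exceeded its change in spleen by 5.37 ± 1.22 and in BM by 5.04 ± 1.22 (adjusted p = 0.0033 and 0.0098), and Ccl7 by 8.17 ± 2.13 and 7.58 ± 2.13 (0.0106 and 0.0286). Arg1 and Ccl2 passed against spleen (5.95 ± 1.75 and 3.14 ± 1.04, adjusted p = 0.0262 and 0.0470), and Tnf against BM (2.75 ± 0.83, 0.0393). Il1a, Trem1 and Cd80, also higher in small intestine, passed against no tissue. For Il1a the log2 difference was 3.49 in BM, 2.41 in spleen and 0.19 in liver.

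Itgax was the gene that passed in BM, where it differed by -3.83 ± 0.99 (SE, adjusted p = 0.0413) beside -3.46 in small intestine. Itgax and Cx3cr1 differed by -3.28 and -3.52 in spleen with an adjusted p of 0.111 each. Of the 8 genes lower in small intestine, none had a change that differed from those of the other tissues past the threshold.

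**Figure D4:**
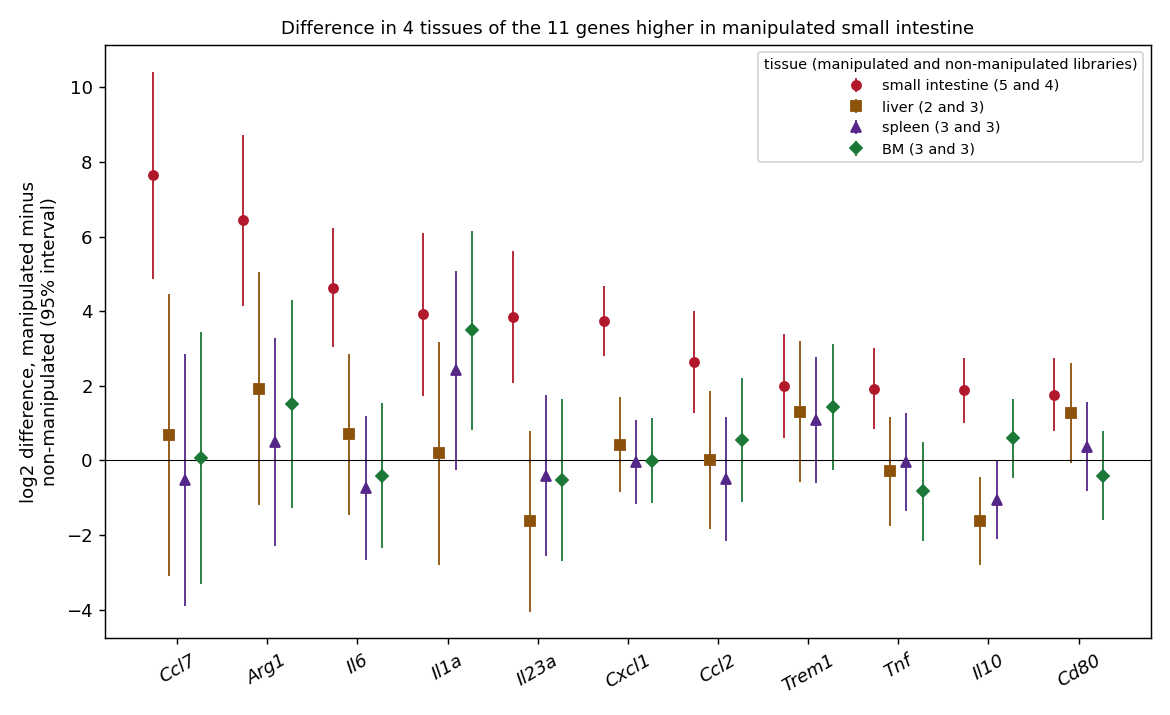
Log2 difference, manipulated minus non-manipulated (y axis, with 95% intervals from limma), of the 11 genes higher in manipulated small intestine (x axis) in small intestine, liver, spleen and BM. Numbers in the legend are manipulated and non-manipulated libraries, and Cxcl1 lies between -0.04 and 0.43 in the other tissues.

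Several of these comparisons between tissues lost their call when a single library was left out. Ccl2 and Il23a against spleen, lost in most such fits, lay near the threshold in the main fit (limma, adjusted p = 0.0470 and 0.0420). Cxcl1 passed in every alternative against each tissue, as did Il10 against liver and Il6 against spleen and BM. Ccl7 against spleen was lost without non-manipulated spleen library 2 (6.81, adjusted p = 0.0683), and became 8.96 without spleen library 3 of that group and 8.98 without manipulated spleen library 2. Against BM it was lost in 5 of 15 fits that each left out 1 library, without non-manipulated small intestine 1 (7.50), non-manipulated BM 2 (6.94), manipulated small intestine 3 or 4 (7.38 each) or manipulated BM 3 (7.11), and became 8.22 without manipulated BM 1.

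Il23a against liver was lost without non-manipulated liver 1 (4.31) or manipulated liver 1 (5.22), and became 6.38 without non-manipulated liver 2. It was lost in 12 of 15 such fits against spleen, all except those without non-manipulated small intestine 4 or manipulated small intestine 1 or 5, and in 11 of 15 against BM, all except those without non-manipulated small intestine 4, manipulated small intestine 1 or 5 or manipulated BM 2. Without manipulated small intestine 4 its excess was 4.82 over liver, 3.59 over spleen and 3.71 over BM, and without manipulated small intestine 5 it was 6.16, 4.93 and 5.05.

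Arg1 against spleen was lost without manipulated small intestine 3 (5.19) or 4 (5.37), non-manipulated spleen 2 (5.64) or manipulated spleen 2 (5.48), and became 6.55 without manipulated small intestine 5. Ccl2 against spleen was lost in 13 of 15 fits, all except those without non-manipulated spleen 1 or 3, and was lowest without non-manipulated spleen 2 (2.38). Tnf against BM was lost in 8 of 15 fits, without non-manipulated small intestine 1 or 2, non-manipulated BM 2 or 3, manipulated small intestine 2, 3 or 4 or manipulated BM 1, where it was lowest (2.15).

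Monocytes of manipulated donors in non-manipulated small intestine (4 libraries) give a further set of levels, which are described without a test. Their log2 levels reached from 15.78 to 16.48 for Tnf and from 14.49 to 15.06 for Cd80, above all 4 non-manipulated libraries with monocytes of unoperated donors (13.95 to 15.37 and 12.90 to 14.33). For Il6 they ranged from 5.40 to 11.04, for Ccl7 from 6.39 to 12.87 and for Il1a from 12.34 to 17.03, a span that covers most of the distance between the groups compared here. Cx3cr1 lay at 9.06 to 10.05 and Itgax at 10.62 to 11.78 in them.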

How the data were processed

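RNA of 100 donor monocytes per library was copied and amplified for the panel's targets over 16 cycles before hybridisation, so a count is not 1 original molecule, and precision was taken from the spread among libraries. The authors deposited counts per probe in 15 libraries and, in the other 18, a signal that equals counts times a constant per lane, the reason for which is not given in the sources used here. After this constant was divided out, 100% of 1988 values were whole (tolerance 0.002). The deposited series matrix holds a score, the same values times 1 factor per lane, and served as an alternative. Normalisation used the geometric mean of Actb, Gapdh and Rpl19 (Gusb and Hprt had no value) and a pseudocount of 1. Genes above background in at least 2 libraries were tested, which kept all 57.

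All 33 libraries of 11 groups entered 1 fit in limma 3.58.1 (R 4.3.3, lmFit and eBayes, two-sided), with Benjamini-Hochberg adjustment over the 57 genes of each of 7 comparisons and a threshold of 0.05. This test was the main one because the methods compared log2 values scaled to house-keeping genes and because some lanes had been multiplied. Its SE and intervals rest on the spread in all 11 groups, which for a gene can be wider or narrower than in the groups compared. The alternatives were edgeR 4.0.16 and DESeq2 1.42.0 on recovered counts, other scalings, filters, blocks and left-out libraries. The script was tested on simulated data. Of the 57 genes 2 are not reported here by name, and they stay in the counts. Members, gene lists and tests were chosen with earlier results of these data known. Values in every library are given for genes with an unadjusted p under 0.05, and from each list up to 2 further genes nearest to a difference of 0 are named. Cxcl11, Cd14, Tlr1, Tlr4, Nod2, Trem2, Relb, Traf6, Emr1, Cd68, Siglec1, Ly6c1 and Retnla lay outside this rule and were named after their values were seen. The panel was picked for monocyte and macrophage genes, so shares of called genes do not describe the transcriptome. Of 72 probes 69 were matched to RefSeq by transcript and 3 by symbol.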

Additional observations from a re-analysis of the deposited data

Results flagged for a closer look

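In small intestine, 7 of 114 sets of libraries (57 genes in 2 groups, 6.14%) held a library far from the others of its group, where chance gives about 5%. In manipulated libraries Ccr9, a gut-homing receptor, stood at 8.35 in library 1 (others 7.01 to 7.36). Library 2 of this group was apart in Cd14 at 17.35 (16.64 to 16.84), in Csf1r at 12.26 (14.01 to 14.53) and in Tlr2 at 5.46 (7.03 to 7.48). In non-manipulated libraries Chil3 stood at 17.15 in library 1 (15.74 to 15.97), Retnla at 12.85 in library 4 (5.26 to 5.76) and Stat6 at 14.13 in library 2 (13.64 to 13.66).

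The change with manipulation differed between small intestine and liver by a tested log2 difference of 3.30 for Cxcl1, 3.50 for Il10 and 5.47 for Il23a. Between small intestine and spleen it differed by 5.95 for Arg1, 3.14 for Ccl2, 8.17 for Ccl7, 3.77 for Cxcl1, 2.94 for Il10, 4.25 for Il23a and 5.37 for Il6. Between small intestine and BM it differed by 7.58 for Ccl7, 3.74 for Cxcl1, 4.36 for Il23a, 5.04 for Il6 and 2.75 for Tnf.

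Ccr8, a chemokine receptor that entered no comparison because it had no value in the small intestine libraries compared here, lay slightly above background in the 4 libraries that list it. It had 71 and 47 counts in primary monocytes of non-manipulated donors (background 54.0 and 39.5), 60 in those of a manipulated donor (34.2) and 31 in library 4 of monocytes from manipulated donors in small intestine (20.1).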

How the results depend on the processing

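The count of 19 genes stayed within 1.5 times in all 31 alternatives, between 14 and 24, and was 14 to 19 when each library was left out. It was 19 with edgeR, 24 and 21 with DESeq2 (house-keeping and own size factors) and 23 with the methods' t-test after adjustment. Of the 19 calls 11 held throughout, 8 were lost in at least 1 setting and none changed sign. Some of these alternatives could hardly differ from the main setting. Both changes of the filter kept the same genes, and the lane constant almost cancels under house-keeping scaling. The larger pseudocount and the floor at background also returned the same 19 genes. Same-numbered libraries of the 2 groups did not vary together (correlations of deviations of 0.21, -0.32, 0.05 and 0.00). So few values cannot show whether the numbers pair the mice or share an experiment. With the replicate block 20 genes passed (11 higher, 9 lower), and 14 (9 and 5) when only the compared groups were fitted. That smaller block fit did not call Card9, Ccr2, Cd80, Csf1r and Trem1 (adjusted p = 0.165, 0.111, 0.0738, 0.132 and 0.0699).

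The differences from other tissues were less stable. Against liver 3 genes passed in the main setting, 5 with edgeR, 7 and 9 with DESeq2 (house-keeping and own size factors), 6 with the replicate block, 5 without manipulated small intestine libraries 3 and 4, and 2 to 7 when each library was left out. Against spleen 7 passed, 3 with the total count and 3 to 7 when each library was left out. Against BM 5 passed, 3 with TMM factors, 2 with the total count, 3 without Rpl19, 2 without manipulated libraries 3 and 4, and 2 to 6 when each library was left out. The cause was not tested. Counts near background limit folds for Il6, Il23a, Ccl7, Cxcl9 and Cx3cr1.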
